A study of Mus musculus with 4 samples.

Results

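The 10 genes described here encode the TGF-beta ligands (Tgfb1, Tgfb2 and Tgfb3), their receptors (Tgfbr1, Tgfbr2 and Tgfbr3) and the Smads Smad2, Smad3, Smad6 and Smad7. They were chosen by name, and every probe set annotated to them alone was used, which gave 17 of the 22626 probe sets that were not controls and 10 of 12393 named genes. The samples were mouse embryonic fibroblasts (MEFs), mesenchymal cells grown out of embryos, taken at embryonic day 10.0 on a C57BL/6J background. They were either Med1+/+ p53-/- or Med1-/- p53-/-, so that the cells of both groups lacked p53, and both came from the same cross of mice heterozygous for Med1. The protein MED1 belongs to Mediator, through which transcription factors on DNA reach RNA polymerase II. Total RNA was hybridised to Affymetrix arrays, with 2 arrays per genotype. Whether replicate arrays represent separate cultures, and how many embryos were used, is not stated in the labels. The p-values therefore cover only the spread between these arrays, which may be technical, and loss of Med1 and other differences between the embryos cannot be told apart.

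TGF-beta is secreted in a latent form bound to its propeptide and to latent TGF-beta binding proteins, and it is set free by integrins, proteases and matrix proteins. The active dimer binds the type II receptor Tgfbr2, often presented by the co-receptor Tgfbr3 (betaglycan), and Tgfbr2 then phosphorylates the type I receptor Tgfbr1. Tgfbr1 phosphorylates Smad2 and Smad3, which enter the nucleus and regulate transcription, whereas Smad6 and Smad7 are inhibitory Smads that act as brakes on the pathway. In fibroblasts TGF-beta is best known for inducing matrix and contractile genes.

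The brightest Med1 probe set, 1448708_at, read 664.6 and 885.6 in Med1+/+ cells against 25.4 and 40.2 in Med1-/- cells as deposited, in the direction of the labels. Median intensities before scaling ranged from 36.1 and 51.4 in Med1-/- to 76.2 and 106.6 in Med1+/+ cells. Values were therefore quantile normalized, and every change given without another scale is a change measured against the rest of the array. The genotypes differed widely: of 7874 genes tested, 74.9% were called at an adjusted p under 0.05 (limma), 39.5% higher and 35.4% lower in Med1-/- cells, and both arrays of a genotype lay beyond both of the other for 88.7%. The median log2 change of all tested genes was 0.12 after quantile normalization, 0.31 with medians set equal, 0.12 with 75th percentiles set equal, -0.74 as deposited and -0.76 after scaling on the hybridisation controls. Of the fibroblast markers 10 of 11 were tested, with 4 higher and 3 lower. The collagen genes Col1a1 and Col1a2 and the filament gene Vim were bright on all 4 arrays. In Med1-/- cells Col1a1, Thy1, Twist1 and Col3a1 rose 3.94-fold, 2.54-fold, 2.34-fold and 2.15-fold. Pdgfra, Prrx1 and Dcn fell 7.73-fold, 7.42-fold and 3.98-fold, and Lum lay below the filter. Of 10 endothelial markers 2 passed the filter on low values, as did 1 of 10 macrophage markers. Of 10 epithelial markers 5 were tested: Cdh1, Krt18, Dsp and Krt8 fell 22.6-fold, 21.8-fold, 15.2-fold and 3.89-fold, and Krt19 rose 3.05-fold, while the summed level of the list went from 4714 and 4858 to 2320 and 2701 normalized units. Of 7 neural markers on the array 2 were tested and both rose, Nes 4.22-fold and Tubb3 3.58-fold (Tubb3 was not called as deposited, adjusted p = 0.0822, limma), and the sum of the list was 290 and 264.2 in Med1+/+ against 950.8 and 989.3 in Med1-/- cells. The sum of 9 smooth muscle markers was 14150 and 13750 in Med1+/+ against 31730 and 29880 in Med1-/- cells. With the mean of all probe sets of a gene the log2 changes of Med1, Pdgfra, Prrx1 and Dsp were smaller (-1.91, -1.97, -1.68 and -2.15) and that of Krt8 larger (-3.68), all still called. The part of these marker shifts in the results below was not tested.

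Relative to the other genes, the ligand genes Tgfb1 and Tgfb3 and the inhibitory Smad genes Smad6 and Smad7 rose in Med1-/- cells by 2.08-fold to 2.58-fold, and the type I receptor gene Tgfbr1 fell 2.37-fold (n = 2 arrays per genotype). The receptor gene Tgfbr2 and the signal-transducing Smad gene Smad2 were not called, and Tgfb2 was called lower on 2 of its 3 probe sets but not on the one with the highest mean. The co-receptor gene Tgfbr3 and Smad3 lay below the expression filter on every probe set. Counting each gene by the probe set with the highest mean, 5 of the 8 tested members were called, 4 higher and 1 lower, which is 62.5% against 74.9% of all tested genes, so the share of members called was no higher than the background. All 5 differed at least 2-fold, so 62.5% of the tested members were called with such a change against 41.0% of all tested genes, a difference that was not tested. Smad6 (2.08-fold) and Tgfb3 (2.12-fold) lay near that cut, and at 0.94 and 0.97 log2 units above the median change of all tested genes. The split depended on the scale: as deposited 0 members were called higher and 3 lower, and after scaling on the hybridisation controls 0 higher and 4 lower (limma, with 0 higher at an unadjusted p under 0.05 in either case). Of the 10 tested member probe sets 5 were called as deposited and 6 on the hybridisation controls, beside 6298 and 9822 of all 13576 tested (limma). Among all probe sets called, 50.7% were higher after quantile normalization, 58.3% with medians set equal, 50.4% with 75th percentiles set equal, 5.18% as deposited and 15.7% on the hybridisation controls.

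**Figure D1:**
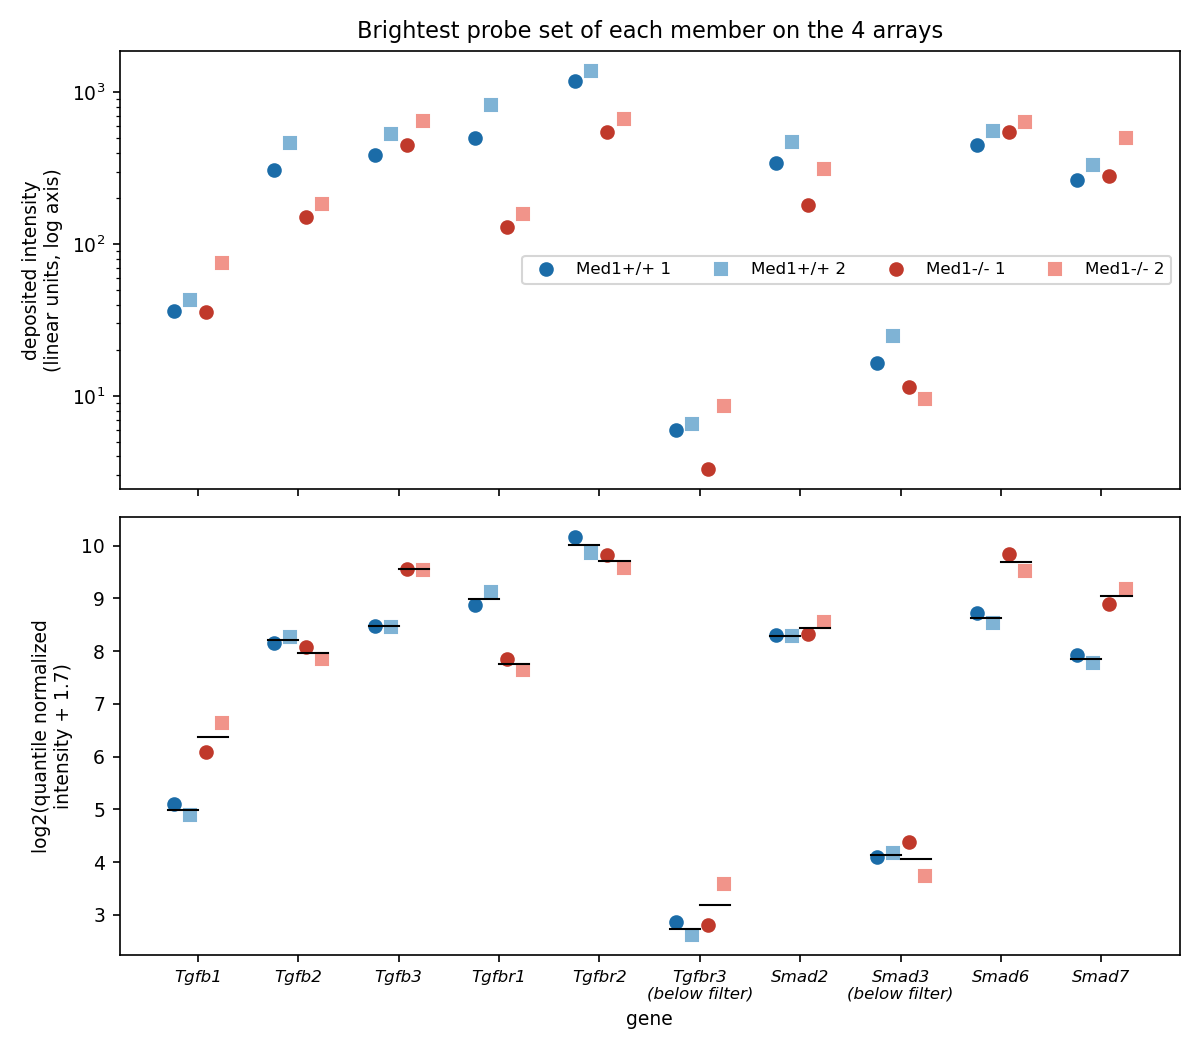
Signal of the brightest probe set of each member on the 4 arrays (blue, Med1+/+; red, Med1-/-; circles, replicate 1; squares, replicate 2), as deposited on a log axis in the upper panel and as log2 of the quantile normalized intensity plus 1.7 in the lower panel, where black bars are group means. As deposited the Tgfbr1 values of Med1-/- cells lie at 129.1 and 157.3, below 501.8 and 828.2 in Med1+/+ cells, while the Tgfb3 and Smad6 values of the genotypes are close; after normalization Tgfb1, Tgfb3, Smad6 and Smad7 lie higher in Med1-/- cells.

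Among the ligands, Tgfb3 had the tightest replicates. Its probe set 1417455_at read 382.9 and 526.8 in Med1+/+ against 449 and 644.5 in Med1-/- cells as deposited, so that the raw ranges overlapped. After quantile normalization the log2 values were 8.48 and 8.46 against 9.56 and 9.54, with no overlap. The log2 change of Tgfb3 was 1.09 (SE 0.11; adjusted p = 0.000231 by limma, n = 2).

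Tgfb1 encodes the ligand best known for fibrosis and immune control, and its only probe set, 1420653_at, was dim. It read 36.4 and 43.1 in Med1+/+ against 35.6 and 74.5 in Med1-/- cells as deposited, and its log2 values after normalization were 5.10 and 4.89 against 6.10 and 6.63. Here the Med1-/- replicates stood further apart than those of any other called member gene, with an SD of 0.38 against 0.15 in Med1+/+ cells. The Med1+/+ values lay close to the filter, which kept probe sets with a mean over the 4 arrays of at least 4.98. The log2 change was 1.37 (SE 0.28; adjusted p = 0.00453, limma), and it was 1.10 without the second Med1-/- array and 1.64 without the first.

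Tgfb2 encodes a ligand with essential roles in heart, palate and skeletal development, and it was measured by 3 probe sets. On 1423250_a_at it read 306.9 and 463.4 in Med1+/+ against 150.7 and 184.7 in Med1-/- cells as deposited, and the log2 change after normalization was -0.25 (95% confidence interval -0.58 to 0.08; adjusted p = 0.146, limma). On 1450923_at the values were 217.3 and 399.9 against 72.8 and 114.2, a log2 change of -0.69 (adjusted p = 0.0121, limma), and on 1450922_a_at they were 211.5 and 301.8 against 87.6 and 100.6, a log2 change of -0.42 (adjusted p = 0.0486, limma). Probe sets called lower made up 35.3% of all tested. All 3 Tgfb2 probe sets had both Med1-/- arrays below both Med1+/+ arrays before and after normalization, and 86.6% of all tested probe sets were without overlap after it. The 3 are annotated to the same source sequence and were read on the same arrays, so they are not separate replicates. The call of 1450923_at was lost without the second Med1+/+ array (log2 change -0.48, adjusted p = 0.0872, limma). That of 1450922_a_at was lost without either Med1+/+ array (adjusted p = 0.142 without the first and 0.166 without the second, limma) and without the second Med1-/- array (log2 change -0.27, adjusted p = 0.187, limma). It was also lost with no filter (adjusted p = 0.081), with medians set equal (0.0853) and without an intensity trend (0.0539).

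**Figure D2:**
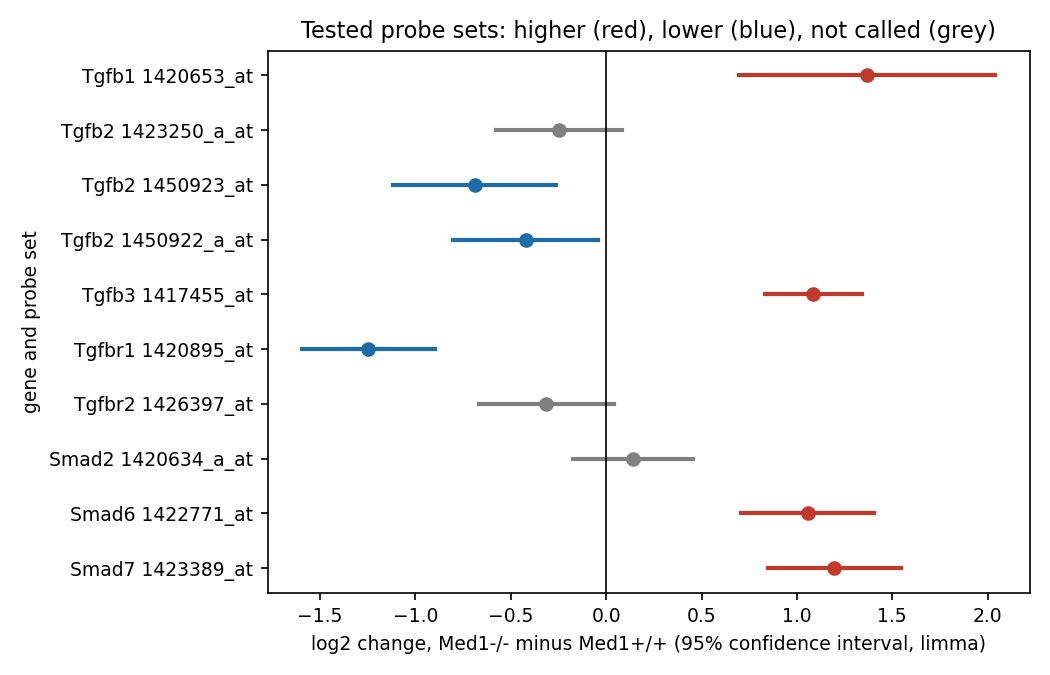
Log2 change, Med1-/- minus Med1+/+ after quantile normalization, of the 10 member probe sets that passed the expression filter, with 95% confidence intervals from limma. Tgfb1, Tgfb3, Smad6 and Smad7 lie above 0, Tgfbr1 and 2 of the 3 Tgfb2 probe sets lie below 0, and the intervals of Tgfbr2, Smad2 and the remaining Tgfb2 probe set include 0.

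The members were also compared as ratios of 2 genes on the same array, which do not depend on a factor common to that array. The log2 ratio of Tgfb2 over Tgfb3 was -0.33 and -0.19 in Med1+/+ against -1.49 and -1.70 in Med1-/- cells. It thus shifted by -1.33, a 2.52-fold change, and by -1.43 in the values as deposited. For Tgfb1 over Tgfb2 the log2 ratio was -3.05 and -3.38 against -1.98 and -1.21, a shift of 1.62 (1.54 as deposited). Neither ratio overlapped between the genotypes. The ratio of Tgfb1 over Tgfb3 did overlap, with -3.38 and -3.57 against -3.47 and -2.91. With 2 arrays against 2, an exact two-sided permutation test cannot give a p below 0.333, which is the value for both non-overlapping ligand ratios (0.583 after Benjamini-Hochberg adjustment over the 7 ratios computed). Of the 5 ratios between tested members 3 did not overlap, whereas 85.2% of all pairs of tested genes gave a ratio without overlap.

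**Figure D3:**
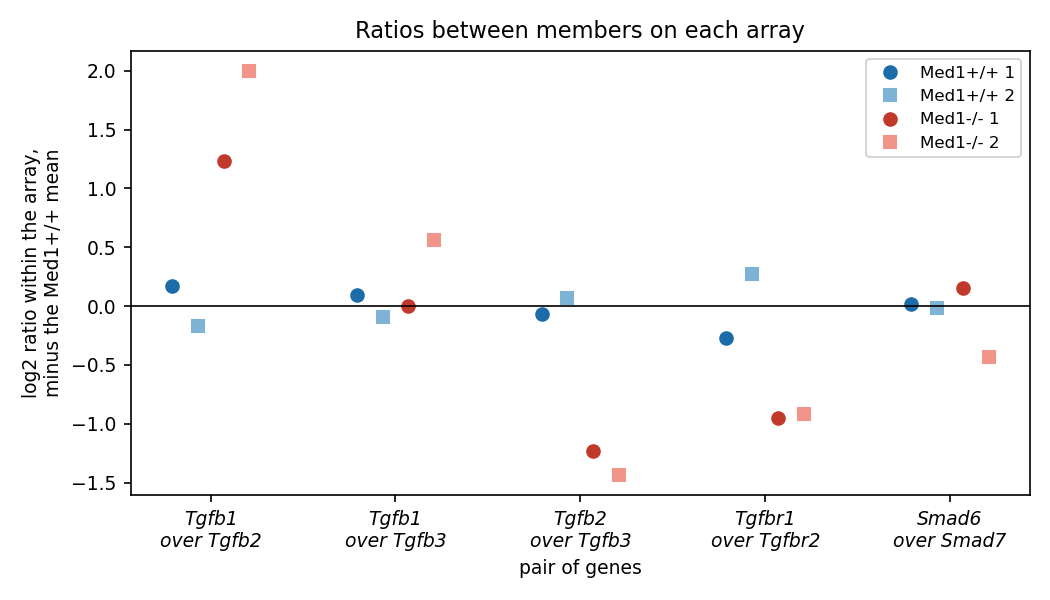
Log2 ratio of the brightest probe sets of 5 pairs of tested members on each array, minus the Med1+/+ mean of that ratio (blue, Med1+/+; red, Med1-/-). Both Med1-/- arrays stand above the Med1+/+ arrays for Tgfb1 over Tgfb2 and below them for Tgfb2 over Tgfb3 and Tgfbr1 over Tgfbr2, whereas the genotypes overlap for Tgfb1 over Tgfb3 and Smad6 over Smad7.

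The sequences before an annotated start of Tgfb1 and of Tgfb2 are shown because the ratio of these paralogs did not overlap between the genotypes. They are the 250 bases upstream of a start in RefSeq's table of build GRCm38.p6, at chr7:25686752-25687001 on the plus strand for Tgfb1 and chr1:186705990-186706239 on the minus strand for Tgfb2. The Tgfb2 window lies inside the annotated gene, chr1:186622787-186709697, and so precedes an internal start. Capitals mark GGGCGG (GC box) or CAGAC (core of the Smad binding element), searched on both strands. These were found in 32.7% and 42.2% of 32851 promoter windows of this length.
Tgfb1: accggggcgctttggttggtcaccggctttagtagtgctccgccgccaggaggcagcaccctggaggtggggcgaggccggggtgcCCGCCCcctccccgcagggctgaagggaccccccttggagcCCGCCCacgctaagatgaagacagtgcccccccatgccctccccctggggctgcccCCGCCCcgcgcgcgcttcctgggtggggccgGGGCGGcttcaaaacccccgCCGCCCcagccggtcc
Tgfb2: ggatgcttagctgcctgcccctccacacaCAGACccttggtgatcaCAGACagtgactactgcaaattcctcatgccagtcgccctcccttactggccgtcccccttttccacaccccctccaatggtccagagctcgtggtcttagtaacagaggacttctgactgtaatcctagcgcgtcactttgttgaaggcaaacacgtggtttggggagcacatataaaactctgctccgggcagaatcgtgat
The Tgfb1 window held 5 GC boxes and no CAGAC, with a GC content of 75.2% against a median of 52.4% over all windows. The Tgfb2 window held 2 CAGAC matches and no GC box, with a GC content of 53.6%. It also held the E box CACGTG from 51 to 46 bases and the TATA box TATAAA from 31 to 26 bases before this internal start, motifs found in 6.02% and 12.4% of all windows. These matches describe letters and were not tested for binding.

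Among the receptors, Tgfbr1 fell and was the only member called lower on its brightest probe set. This gene encodes the kinase ALK5 that phosphorylates Smad2 and Smad3. Its probe set 1420895_at read 501.8 and 828.2 in Med1+/+ against 129.1 and 157.3 in Med1-/- cells as deposited, with log2 values after normalization of 8.88 and 9.11 against 7.85 and 7.64. Both Med1-/- arrays were below both Med1+/+ arrays on either scale. The log2 change was -1.25 (SE 0.14; adjusted p = 0.000419 by limma, n = 2), and it was called lower under each of the 5 scalings, from -1.11 with medians set equal to -2.18 on the hybridisation controls. With the mean of all its probe sets Tgfbr1 lay below the filter and was not tested. The other Tgfbr1 probe sets lay below the filter, 1420893_a_at with 11.9 and 12.1 against 2.5 and 1.1 and 1420894_at with 8.3 and 4.6 against 2.5 and 5.6.

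Tgfbr2, the receptor that binds the ligand, read 1191.4 and 1383.5 in Med1+/+ against 544 and 665.9 in Med1-/- cells on 1426397_at. After normalization its log2 change was -0.31 (95% confidence interval -0.67 to 0.04; adjusted p = 0.0956, limma), with no overlap between the genotypes. It was called lower as deposited (-1.09, adjusted p = 0.0448, limma) and on the hybridisation controls (-1.11, adjusted p = 0.000241, limma). Its remaining probe sets were below the filter at 2.8 to 20.7 as deposited. Tgfbr3 read 6 and 6.5 in Med1+/+ against 3.3 and 8.6 in Med1-/- cells on its only probe set, below the filter and with the genotypes overlapping. The log2 ratio of Tgfbr1 over Tgfbr2 was -1.30 and -0.75 in Med1+/+ against -1.98 and -1.94 in Med1-/- cells, a shift of -0.93, or -1.07 as deposited (exact two-sided permutation p = 0.333, the smallest possible).

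The upstream windows of Tgfbr1 and Tgfbr2 are given for the same reason, at chr4:47352972-47353221 on the plus strand and chr9:116175364-116175613 on the minus strand of GRCm38.p6 in RefSeq's table, with the same marking.
Tgfbr1: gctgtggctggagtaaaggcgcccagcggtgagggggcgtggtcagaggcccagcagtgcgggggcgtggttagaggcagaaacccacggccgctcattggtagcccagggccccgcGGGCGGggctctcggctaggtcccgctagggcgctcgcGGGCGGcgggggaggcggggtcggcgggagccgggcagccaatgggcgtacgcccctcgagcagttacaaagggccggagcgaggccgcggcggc
Tgfbr2: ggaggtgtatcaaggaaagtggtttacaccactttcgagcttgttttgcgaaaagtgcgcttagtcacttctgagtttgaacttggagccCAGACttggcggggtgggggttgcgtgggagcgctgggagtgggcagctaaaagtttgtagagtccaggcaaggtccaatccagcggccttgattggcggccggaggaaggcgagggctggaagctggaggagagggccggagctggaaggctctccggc
This Tgfbr1 window held 2 GC boxes and no CAGAC, and its GC content was 74.8%. RefSeq's table holds another Tgfbr1 window, at chr4:47385966-47386215, with 1 CAGAC, no GC box and 52.8% GC. The Tgfbr2 window held 1 CAGAC and no GC box, with 58.4% GC. None of the 3 held the TATA box sequence.

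The inhibitory Smads rose together relative to the other genes. Smad7, which recruits ubiquitin ligases to Tgfbr1 and blocks its access to Smads, read 264 and 332.4 in Med1+/+ against 279.2 and 496.1 in Med1-/- cells as deposited, and its log2 values after normalization were 7.92 and 7.77 against 8.90 and 9.18. Its log2 change was 1.20 (SE 0.14; adjusted p = 0.000496, limma). Smad6, which acts mainly against BMP signalling, read 451.9 and 552.2 against 544.5 and 637.8, with log2 values of 8.72 and 8.53 against 9.83 and 9.53. Its log2 change was 1.06 (SE 0.14; adjusted p = 0.00083, limma). As deposited the genotypes overlapped for both genes, whereas after normalization both Med1-/- arrays were higher. The ratio of Smad6 over Smad7 overlapped between the genotypes, with log2 values of 0.79 and 0.76 against 0.93 and 0.34.

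The upstream window of Smad6, whose rise had a change close to that of Smad7, lies at chr9:64022060-64022309 on the minus strand of GRCm38.p6 in RefSeq's table. It held 4 GC boxes and no CAGAC, with 66.8% GC, and it overlaps the annotated gene, which ends at 64022085. The window of Smad3, a gene below the filter, held 2 GC boxes and no CAGAC, with 69.2% GC. Windows of Tgfb3, Tgfbr3, Smad2 and Smad7 are not given here.
Smad6: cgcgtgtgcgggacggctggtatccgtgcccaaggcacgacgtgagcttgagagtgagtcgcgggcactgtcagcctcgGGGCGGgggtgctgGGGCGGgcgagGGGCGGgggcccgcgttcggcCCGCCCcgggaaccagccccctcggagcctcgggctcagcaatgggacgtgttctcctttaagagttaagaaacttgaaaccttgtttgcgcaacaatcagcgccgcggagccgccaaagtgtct

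The signal-transducing Smads gave no call. Smad2 read 339.7 and 466.9 in Med1+/+ against 182 and 312.4 in Med1-/- cells as deposited, and its log2 values after normalization were 8.30 and 8.28 against 8.32 and 8.54. The log2 change was 0.14 (95% confidence interval -0.17 to 0.45; adjusted p = 0.355, limma), and its direction turned with the scale, to -0.74 as deposited and to a called -0.75 on the hybridisation controls (adjusted p = 0.00345, limma). Relative to the median of all genes it lay at 0.0067 to 0.022 under the 5 scalings. Smad3 read 16.6 and 24.8 against 11.4 and 9.6 on 1450472_s_at and 2 to 3.2 against 1.3 to 2.9 on 1450471_at, below the filter on both, and the genotypes overlapped after normalization.

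Changes were also measured from the median change of all genes. Every scaling other than the quantile one multiplies an array by 1 factor, which this subtraction removes, so those values nearly coincide by construction. On this footing Tgfb1 lay 1.08 to 1.25 log2 units above that median under the 5 scalings, Tgfb3 0.97 to 1.01, Smad6 0.94 to 0.99 and Smad7 1.07 to 1.08. Tgfbr1 lay at -1.36 to -1.42, Tgfb2 at -0.37 to -0.43 and Tgfbr2 at -0.34 to -0.43. The rises of Tgfb1, Tgfb3, Smad6 and Smad7 are therefore rises relative to other genes: as deposited their log2 changes were 0.37, 0.26, 0.24 and 0.33, and none was called (lowest adjusted p = 0.584, limma). On the hybridisation controls they were 0.35, 0.24, 0.22 and 0.31, and none was called either (lowest adjusted p = 0.0784, limma).

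**Figure D4:**
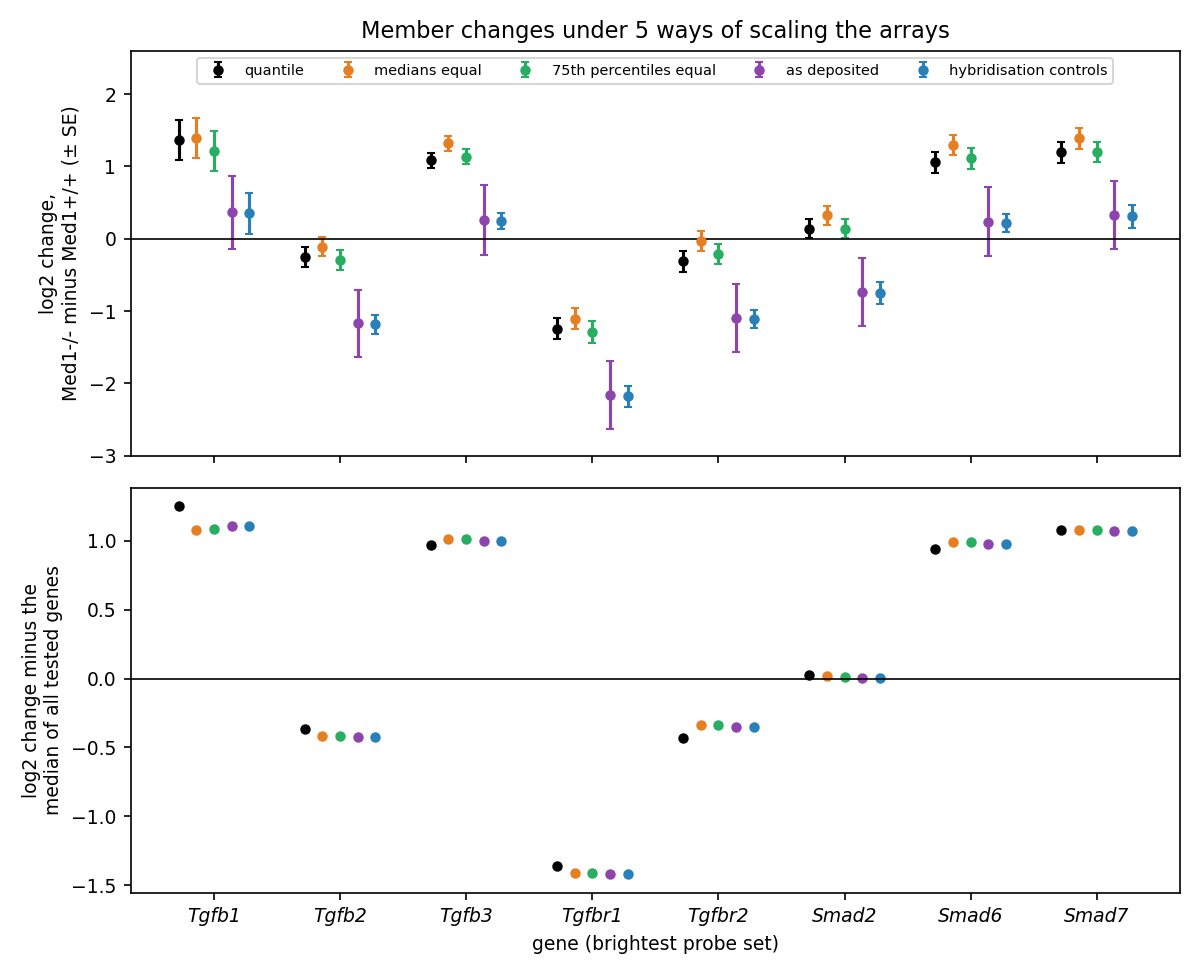
Log2 change of the 8 tested members, Med1-/- minus Med1+/+, under 5 scalings of the arrays (colours), with standard errors in the upper panel and after subtraction of the median change of all tested genes in the lower panel. In the upper panel the values as deposited and on the hybridisation controls lie lower for every gene. In the lower panel subtraction of the median removes any factor common to an array, so that the scalings other than the quantile one nearly coincide by construction. Over all 5 scalings Tgfbr1 lies there between -1.36 and -1.42 and Smad7 between 1.07 and 1.08.

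The genes of the wider pathway moved in both directions. Of 96 listed genes 85 were on the array and 72 were tested, of which 36 were higher and 28 lower, so that 88.9% were called against 74.9% of all tested genes, and their median log2 change was 0.37 against 0.12. As deposited 36 of the 72 were called, 8 higher and 28 lower, beside 6298 of all 13576 tested probe sets (limma). On the hybridisation controls 54 of the 72 were called, 20 higher and 34 lower, beside 9822 of 13576 (limma). The background on these other scales was counted by probe set, not by gene (71.6% against 74.9% after quantile normalization). The lead of the pathway genes over the background can therefore not be compared between the scales, and it was not tested.

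Genes that store and activate latent TGF-beta had 5 higher and 6 lower of 12 tested, with a median of -0.35. Furin, the gene of the protease that cuts the TGF-beta propeptide, rose from 85.2 and 164.5 to 266.1 and 300.5 as deposited, a log2 change of 2.15 after normalization (SE 0.20; adjusted p = 0.000209, limma), and the latent TGF-beta binding protein gene Ltbp3 rose by 1.25. Dcn, which encodes the TGF-beta binding proteoglycan decorin, fell by 1.99, from 2013.7 and 2855.4 to 303 and 416.7 as deposited. The microfibril gene Fbn2 fell by 1.69. The rise of Ltbp3 was not called in the values as deposited (log2 change 0.65, adjusted p = 0.215, limma).

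Receptor partners and brakes had 4 higher and 2 lower of 8 tested, with a median of 0.52. Pmepa1, which encodes a membrane protein that keeps Smad2 and Smad3 from the receptor, rose from 542.7 and 841.1 to 1452.6 and 2485.2 as deposited, a log2 change of 2.18 after normalization (SE 0.12; adjusted p = 7.26e-05, limma). Its relative Ldlrad4 rose by 1.67 and the adaptor gene Dab2 by 1.24, and Strap, a gene of a protein that holds Smad7 at the receptor, fell by 0.91. As deposited neither Ldlrad4 (0.69) nor Dab2 (0.50) was called, while Pmepa1 was called higher under each scaling. With the mean of all probe sets of a gene the call of Ldlrad4 was lost (0.77, adjusted p = 0.0538, limma) and Dab2 lay at 0.52. Ldlrad4 had a mean log2 value of 4.62 in Med1+/+ cells, below the filter, and 6.29 in Med1-/- cells.

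Smad regulators had 8 higher and 6 lower of 15 tested, with a median of 0.45. The largest called changes were rises, those of Tgfb1i1 (log2 change 1.66), which encodes the focal adhesion protein Hic-5, the Smad corepressor genes Ski (1.56) and Tgif2 (1.47), and the ubiquitin ligase gene Nedd4l, which rose 2.83-fold. With the mean of all its probe sets Nedd4l lay at 0.80. As deposited none of these 4 was called, and the list had 0 higher and 6 lower (limma, with 0 higher at an unadjusted p under 0.05).

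Genes listed as TGF-beta targets in fibroblasts had 15 higher and 8 lower of 27 tested, with a median of 0.48, and 4 higher and 8 lower as deposited (limma). The list was not split by the direction in which TGF-beta moves each gene. The cell cycle inhibitor gene Cdkn1a rose by 2.58, the fibronectin receptor gene Itga5 by 2.48 and the collagen gene Col1a1 by 1.98, from 1366.3 and 2225.2 to 3722.7 and 6043.6 as deposited. Itga5 lay at 1.02 with the mean of all its probe sets. Postn, which encodes the matrix protein periostin, fell by 3.84, from 3848.6 and 5422 to 153.7 and 224.7. Beside this list, 7 of 9 smooth muscle markers were tested and all 7 were higher, as were 39.5% of all tested genes. Acta2 and Tagln are in both lists. Of the 7, Lmod1 had a mean log2 value of 4.30 in Med1+/+ cells, below the filter, and 5.77 in Med1-/- cells. As deposited the log2 changes of the 7 ran from 0.45 for Acta2 and 0.52 for Lmod1 to 4.65 for Actg2.

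Activins also signal through Smad2 and Smad3. The genes listed as the activin branch had 4 higher and 4 lower of 8 tested, with a median of 0.15. The activin antagonist gene Fstl3 rose by 3.29 and the other antagonist gene Fst fell by 1.46. The activin subunit genes also parted, Inhbb rising by 2.08 and Inhba falling by 0.82. The remaining Smads had 0 higher and 2 lower of 3 tested (limma, with 0 higher at an unadjusted p under 0.05), Smad5 falling by 1.28 and Smad1 by 0.73, both of which transduce BMP signals. The call of Smad5 was lost with the mean of all its probe sets (-0.41, adjusted p = 0.089, limma). Smad4, the remaining tested gene of that list, was not called (log2 change 0.22, adjusted p = 0.0967, limma). With medians or 75th percentiles set equal Smad4 was called higher, whereas on the hybridisation controls all 3 tested genes of the list were called lower.

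**Figure D5:**
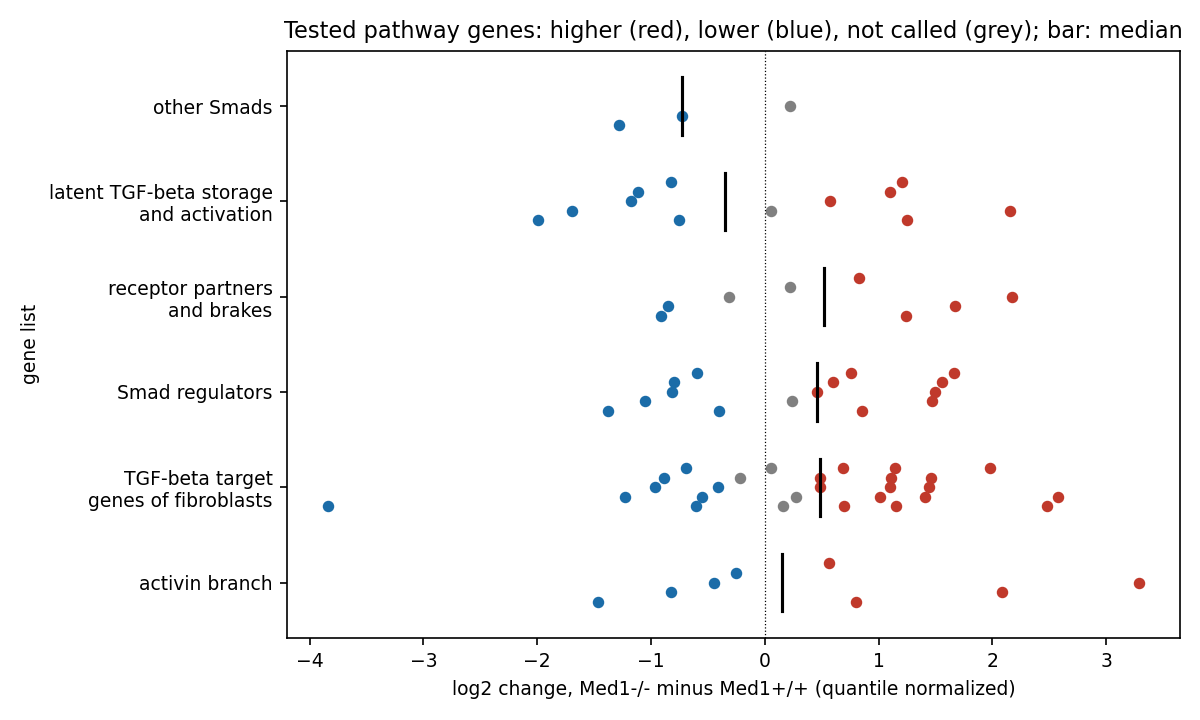
Log2 change, Med1-/- minus Med1+/+ after quantile normalization, of each tested gene in 6 lists of the wider TGF-beta pathway (red, called higher; blue, called lower; grey, not called; black bars, medians). Each list other than the remaining Smads holds genes called in both directions, with Postn at -3.84 and Fstl3 at 3.29 as the extremes.

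Over the 4 arrays, the genes closest to the most changed member of each class, by Euclidean distance between centred log2 values, were Epha2 (0.11), Rabggta (0.12) and Zfp296 (0.13) for Tgfb1. They were Pik3ca (0.07), BC002059 (0.08) and Mfsd1 (0.08) for Tgfbr1 and Repin1 (0.04), Slc2a10 (0.05) and Cbll1 (0.05) for Smad7. With 4 arrays in 2 groups this likeness mostly reflects a change of the same size.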

How the data were processed

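Per the labels' protocols, biotin-labelled RNA was made from total RNA with a 3' IVT kit and hybridised to arrays. The authors deposited 1 linear intensity for each probe set on each array, and their probe summary, background correction and scaling are not given in the sources used here. Control probe sets (64) were removed. The platform annotation gave 1 gene symbol for 20380 probe sets, several for 691 and none for 1555, and symbols were checked through Entrez identifiers in RefSeq's gene table. After quantile normalization, log2 was taken with a pseudocount of 1.7, the table's 10th percentile, which understates fold changes of dim genes. The dimmest probe sets by mean log2 value, up to the 40th percentile (9050), were dropped, and limma 3.58.1 (R 4.3.3; eBayes with trend, two-sided) was run on the other 13576, with Benjamini-Hochberg adjustment over all of these and a threshold of 0.05. A gene was counted by its probe set with the highest mean. The procedure was also run on simulated data in which a small part of the tested probe sets changed, equally up and down. That run cannot show how the procedure behaves where most probe sets change, as they did here. The number of arrays limits the precision.

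Members and lists were chosen with earlier results of these data known. Genes named were Med1, all members, up to 4 called genes with the largest change per list, and the 3 nearest genes of a member per class. Not all smooth muscle and endothelial markers that met this rule were named. Acta2, Tagln, Col1a2, Vim, Col3a1, Thy1, Twist1, Krt19, Lum, Lmod1 and Smad4 were named after their values were seen. Alternatives varied the filter, scaling, pseudocount, variance model, replicate block, probe set choice and arrays used. Figures were drawn with matplotlib 3.10.9.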

Additional observations from a re-analysis of the deposited data

How the results depend on the processing

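With 2 arrays per genotype, leaving out each array in turn gave 5 called member genes each time, 5 to 7 called member probe sets, 53 to 59 called pathway genes and 8114 to 9373 called probe sets (limma), and kept the direction of each named gene that passed the filter (Tgfbr3 and Smad3 did not). In the values as deposited 3 member genes, 36 pathway genes and 6298 probe sets were called, and the change of Smad2 turned to -0.74, as it did on the hybridisation controls (-0.75). With the mean of all probe sets of a gene 6314 features were called, of 8783 genes and unassigned probe sets tested in place of 13576, and Tgfbr2 turned to 0.57, since its dim probe sets lay higher in Med1-/- cells. In that setting 7 members were tested, Tgfbr1 not among them, and Tgfb2 was the 1 member called lower (-0.45, adjusted p = 0.0197, limma). Among the ratios, Tgfb1 over Tgfb3 turned to -0.0023 with a pseudocount of 17 and Tgfbr2 over Tgfbr3 to 0.12 with the mean of all probe sets. Without the second Med1-/- array Smad2 over Smad3 turned to -0.22 and Smad6 over Smad7 to 0.15, and the leave-one-out ranges of these were -0.22 to 0.66 and -0.43 to 0.15. The cause of these turns was not tested where none is named. The labels do not say that replicate numbers pair the arrays, though deviations from the group means correlated at 0.30 between arrays of the same number. With the replicate number as a block 6 member genes were called, Tgfbr2 being added as lower (-0.31, adjusted p = 0.00206, limma), along with 8 member probe sets, 70 pathway genes and 10808 probe sets. Dim probe sets limit what can be read of Tgfb1, Tgfbr3 and Smad3.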
